A study of Mus musculus with 6 samples.

Results

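The mRNAs described here encode 10 factors that shorten poly(A) tails, remove caps or mark maternal mRNAs for decay: *Btg4*, *Cnot1*, *Cnot6*, *Cnot6l*, *Cnot7*, *Cnot8*, *Dcp1a*, *Dcp2*, *Zfp36l2* and *Ythdf2*. They were chosen by symbol from the known decay machinery of the oocyte, and each was found in 1 row of a table of 25899 gene symbols. The table holds 6 RNA-seq libraries from aged female (AF) CD1 mice, labelled as 58 weeks old. Of these, 3 are from polysomal (P) and 3 from non-polysomal (NP) fractions, and nothing in the labels says that the replicates came from separate groups of animals, so the spread between them may be partly technical. Hormone-primed females gave fully grown oocytes at the germinal vesicle stage, which were held there with IBMX, freed of their surrounding cells, and then cultured for 180 minutes without the inhibitor until nuclear envelope breakdown (NEBD). Each sample pooled 200 NEBD oocytes, and all received cycloheximide (0.1 mg/ml, 10 minutes), which holds ribosomes on the mRNA, before a sucrose gradient was cut into 10 fractions. NP holds free and monosome-bound RNA and P holds polysome-bound RNA, so P against NP is a comparison within aged oocytes. Libraries of young females were not analysed here.

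A fully grown oocyte no longer transcribes, and its stored mRNAs are translated, silenced or destroyed in a set order as meiosis resumes. Destruction starts at the poly(A) tail: the CCR4-NOT complex is built on the scaffold CNOT1 and carries exonucleases of the DEDD type (CNOT7 or CNOT8) and of the EEP type (CNOT6 or CNOT6L), and adaptors such as BTG4, ZFP36L2 and the m6A reader YTHDF2 bring mRNAs to it, after which DCP1A and DCP2 remove the cap. Several of these factors are themselves made from dormant mRNAs whose tails lengthen during maturation under the cytoplasmic polyadenylation element (CPE), a U-rich signal close to the polyadenylation hexamer.

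The CPE letters are shown first, because the mRNA end is where such control acts. One reference transcript per gene was read from GENCODE M21 (GRCm38), and the last 200 bases of its 3' UTR were searched on the mRNA strand for TTTTAT or TTTTAAT. At least 1 match was present in 5 of the 10 mRNAs (*Btg4*, *Cnot1*, *Cnot8*, *Dcp1a* and *Ythdf2*), against 2330 of 7769 tested genes with a 3' UTR of that length or more. The windows of *Btg4* with 2 matches and *Dcp1a* with 3 were among the 7.49% of genes with 2 or more. All 8 matches are given 5′ to 3′ as 30-base windows of the 3' UTR, with the CPE letters, and the hexamer where it fell in the window, in capitals.
Btg4 site 1, chr9:51119748-51119777, plus strand: gtaaccagtctaTTTTATaaatctgttaaa
Btg4 site 2, chr9:51119797-51119826, plus strand: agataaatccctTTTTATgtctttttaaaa
Cnot1, chr8:95719504-95719533, minus strand: aagatgtattgaTTTTATatatgtgagtac
Cnot8, chr11:58118552-58118581, plus strand: tatgtTTTTAATtttgtaaAATAAAgattg
Dcp1a site 1, chr14:30526912-30526941, plus strand: tagtggtgtggaTTTTATaccatctgtgta
Dcp1a site 2, chr14:30526985-30527014, plus strand: tttcatcctaaaTTTTATatgtttgcaaat
Dcp1a site 3, chr14:30527011-30527040, plus strand: aaatatatttTTTTAATAAAatttcaaaac
Ythdf2, chr4:132184996-132185025, minus strand: ctctgccaaactTTTTATtataaaatatat

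These matches began between 38 bases (*Cnot8*) and 140 bases (*Dcp1a* site 1) from the transcript end. In *Dcp1a* site 3 the CPE letters overlapped the hexamer. The hexamer AATAAA or ATTAAA was in the last 200 bases of 8 of the 10 mRNAs, *Btg4* and *Cnot6* being the exceptions, and in 84.2% of the genes. The last 200 bases of *Cnot6*, *Cnot6l*, *Cnot7*, *Dcp2* and *Zfp36l2* held none of the CPE letters, although their whole 3' UTRs held 1, 16, 9, 12 and 4 matches. The Pumilio letters TGTANATA were in the windows of *Cnot7* and *Cnot8* (8.32% of genes), and the AU-rich letters TATTTAT, of the kind that ZFP36L2 binds, in that of *Cnot8* (7.52% of genes). The 3' UTRs ranged from 480 bases in *Cnot6* and 521 in *Btg4* to 6847 in *Cnot6l* and 7240 in *Dcp2*, beside a median of 949 bases over 8954 tested genes. A match is a run of letters in a reference transcript and not a measured site.

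The libraries differed widely in depth. The deposited values are FPKM, and the depths recovered from their steps ran from 163805 reads in P replicate 1 to 18096647 in NP replicate 2, a 110-fold span, with 1237713 and 12131147 reads in NP replicates 1 and 3 and 1141347 and 1549269 in P replicates 2 and 3. The P libraries listed 6247 to 9557 genes above 0 and the NP libraries 9992 to 13514. Replicate 3 listed fewer genes than a library of the same fraction with fewer reads. In NP it listed 9992 genes from 12131147 reads, against 11088 from 1237713 in replicate 1. In P it listed 6908 from 1549269, against 9557 from 1141347 in replicate 2. FPKM summed over the table was 246182 to 393876 in P and 597261 to 633110 in NP, and the part of this gap in the ratios below was not tested. All 10 oocyte markers looked for, such as *Zp3* and *Gdf9*, were above 0 in every library, with sums of 11050 to 13810 FPKM in NP and 5123 to 14090 in P. Of 10 granulosa and cumulus markers, 5 were above 0 in any library, with sums of 10.52 to 131 FPKM in NP and 1.541 to 15.43 in P, and *Amh*, *Foxl2*, *Fshr*, *Inhba* and *Has2* were at 0 in all 6. *Cyp19a1*, at 7.15, 22.5 and 104 FPKM in NP, and *Nr5a2*, at up to 26.9 FPKM in NP replicate 3, made up most of the NP sums, and their part in the ratios was not tested. The 5 blood markers found were at 0 throughout.

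The 10 mRNAs covered a wide range of levels, with *Btg4* and *Dcp1a* the highest by mean in both fractions. In NP replicate 3 *Cnot8* was above *Dcp1a*. FPKM is per exon length, so levels of different genes can be set side by side within a library. In pooled oocytes, fewer cells holding an mRNA and less of it per cell cannot be told apart. By mean, the order in NP was *Btg4*, *Dcp1a*, *Cnot8*, *Cnot1*, *Cnot7*, *Ythdf2*, *Dcp2*, *Cnot6l*, *Zfp36l2* and *Cnot6*. The order in P was the same down to *Cnot7*, followed by *Dcp2*, *Cnot6l*, *Ythdf2*, *Cnot6* and *Zfp36l2*. The ranges of neighbours in the order overlapped at every step but 1, between *Cnot8* and *Cnot1* in NP, so between libraries the other neighbours were not separated. Within each library *Btg4* was above *Dcp1a*, as given below, although the exon lengths behind these values are uncertain. *Btg4* and *Dcp1a* together made up 61.0% to 84.3% of the summed FPKM of the 10 mRNAs in NP and 73.9% to 88.5% in P.

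**Figure D1:**
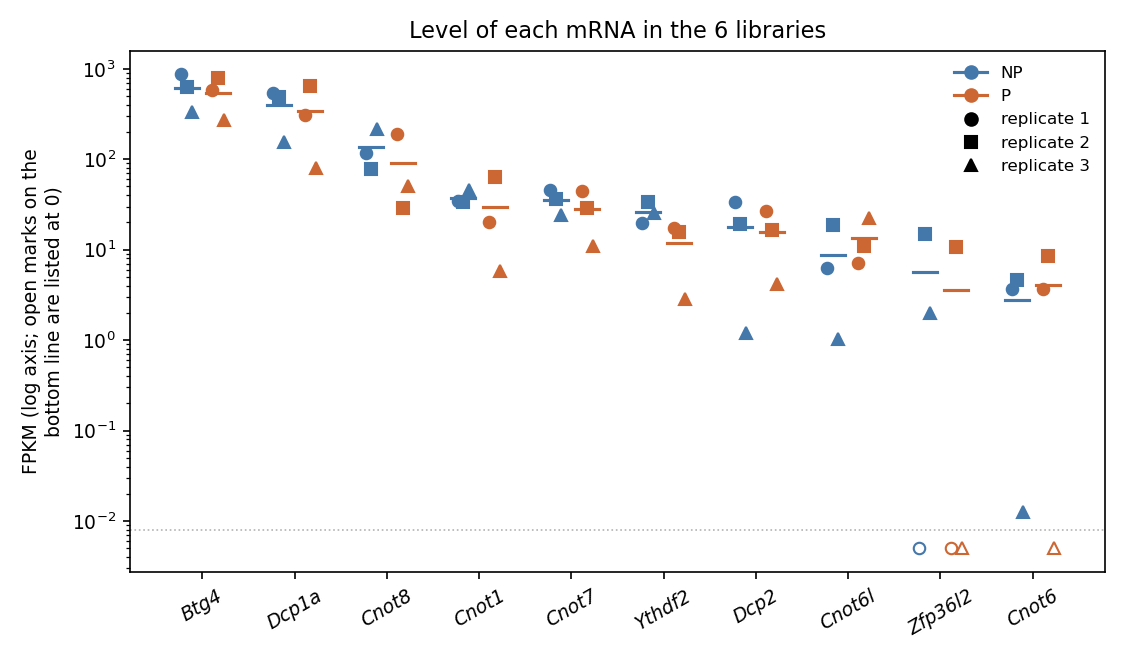
FPKM of each mRNA (log axis) in the 3 NP (blue) and 3 P (orange) libraries, with symbols for the replicate number, bars for the mean and open symbols for values listed at 0. The NP and P symbols of each mRNA overlap except for *Ythdf2*, and *Btg4* and *Dcp1a* lie above the other mRNAs by mean.

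*Btg4* encodes the oocyte-enriched BTG/TOB family protein that links the CCR4-NOT catalytic subunits to maternal mRNAs. Its row spans chromosome 9, 51116001 to 51119700 on the plus strand (GRCm38), and both CPE windows above lie beyond the end of that row. It was at 866, 631 and 335 FPKM in NP replicates 1, 2 and 3 and at 577, 786 and 268 FPKM in P replicates 1, 2 and 3. The fractions overlapped, and replicate 3 was the lowest in each. The means were 610 ± 266 FPKM in NP and 544 ± 261 FPKM in P (SD, n = 3 each). The log2 ratio of P over NP was -0.19 with an SE of 0.62 and an adjusted p of 0.8875 (limma, Benjamini-Hochberg), and its 95% interval ran from -1.48 to 1.09. Dividing each library by a median-of-ratios size factor turned the ratio to 0.80, still short of the threshold. Ratios here are on the log2(FPKM + 1) scale, which understates differences of low genes. *Btg4* ranked 16th of 9557 genes listed above 0 in P replicate 2, 82nd in P replicate 1 and 278th in P replicate 3, and between 91st and 366th in the NP libraries. No 50-base stretch of its exons was shared with transcripts of another gene.

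*Cnot1* encodes the scaffold of the CCR4-NOT complex (chromosome 8, 95719451 to 95807462, minus strand). It was at 34.2, 33.3 and 45.6 FPKM in NP and at 20.4, 63.9 and 5.77 FPKM in P, replicates in order. The NP values lay close together at 37.7 ± 6.83 FPKM, whereas the P values enclosed them, with replicate 2 above and replicates 1 and 3 below all of NP (30.01 ± 30.2 FPKM; SD, n = 3). The log2 ratio was -0.86 with an SE of 1.05 (limma adjusted p = 0.6583), and under median-of-ratios rescaling it was 0.083. Without P replicate 2 it was -1.67, and without P replicate 3 it was -0.04. Of the 50-base stretches of *Cnot1*, 4.76% also occur elsewhere, mostly in *Gm6158*, which was at or below 5.73 FPKM in every library.

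The DEDD-type deadenylase mRNAs, *Cnot7* (chromosome 8, 40492540 to 40515847, minus strand) and *Cnot8* (chromosome 11, 58104153 to 58118594, plus strand), encode alternative catalytic subunits that occupy the same place in the complex. *Cnot8* was at 118, 77.8 and 213 FPKM in NP and at 192, 29.2 and 50.9 FPKM in P. Its highest value was NP replicate 3 and its lowest P replicate 2, and the fractions overlapped. *Cnot7* was at 46.2, 36.6 and 24.0 FPKM in NP and at 45.1, 29.045 and 11.1 FPKM in P. *Cnot7* and *Ythdf2* were the 2 of the 10 mRNAs lower in P than in the same-numbered NP library in 3 of 3 pairs, a pattern shown by 38.6% of all genes tested. For *Cnot7* these log2 ratios were -0.03, -0.32 and -1.05. The log2 ratios over the 3 libraries were -0.91 with an SE of 0.88 for *Cnot8* (limma adjusted p = 0.5763) and -0.47 with an SE of 0.997 for *Cnot7* (adjusted p = 0.8214), and both were above 0 after median-of-ratios rescaling (0.077 and 0.49). For *Cnot8* the log2 ratio was -1.67 without P replicate 1 and -0.33 without P replicate 2.

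*Cnot8* was listed above *Cnot7* in all 6 libraries. The fold of *Cnot8* over *Cnot7* was 2.55, 2.12 and 8.90 in NP replicates 1, 2 and 3 and 4.26, 1.01 and 4.59 in P. In P replicate 2 the levels did not differ beyond counting error, since the fold rested on 88 and 193 reads and its exact 95% interval ran from 0.773 to 1.30. In the other libraries the interval stayed above 1, the lowest bound being 2.03 in NP replicate 2. These intervals cover counting error only, because amplified reads are not independent molecules. Of the 50-base stretches of *Cnot8*, 7.82% also occur in *Gm18860*, which is not among the gene symbols listed, so its level could not be read. Those shared by *Cnot7* (2.76%) lay mostly in *Zdhhc2*, which was at 1.31 FPKM at most.

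The EEP-type deadenylase mRNAs had lower means, although *Cnot6l* was above *Cnot7* in P replicate 3. *Cnot6l* (chromosome 5, 96070333 to 96164171, minus strand) encodes the form known to act in the maternal mRNA clearance of mouse oocytes. It was at 6.27, 18.8 and 1.02 FPKM in NP and at 7.10, 11.0 and 22.3 FPKM in P. The fractions overlapped, and replicate 3 held both the lowest value, in NP, and the highest, in P. *Cnot6l* had the highest log2 ratio of the 10 mRNAs, 0.98 with an SE of 1.23 (95% interval -1.56 to 3.53; limma adjusted p = 0.6667). Without NP replicate 3 it was 0.13, without P replicate 3 it was 0.57 and below that of *Cnot6*, and after median-of-ratios rescaling it was 1.90. By replicate number the ratios were 0.16, -0.73 and 3.53, the one from replicate 3 being the largest in size.

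*Cnot6* (chromosome 11, 49671503 to 49712723, minus strand), the paralogue of *Cnot6l*, was at 3.67, 4.61 and 0.0125 FPKM in NP and at 3.69 and 8.48 FPKM in P replicates 1 and 2, and was listed at 0 in P replicate 3. The values came out as whole reads, 30, 551 and 1 in NP and 4, 64 and 0 in P. By counting alone, the 0 in P replicate 3 allows up to 0.293 FPKM, taking 3 reads as the limit. *Cnot6* was therefore near or below detection in replicate 3 of both fractions, while *Cnot6l* had 128 and 357 reads there. This limit and the intervals below cover counting error only, because amplified reads are not independent molecules, so the true level of *Cnot6* there can be higher. The log2 ratio of P over NP was 0.25 with an SE of 1.22 (limma adjusted p = 0.9294), and it was -0.53 without NP replicate 3. *Cnot6l* exceeded *Cnot6* by 1.71-fold, 4.09-fold and 82.0-fold in NP replicates 1, 2 and 3, the last resting on the single *Cnot6* read, with an exact 95% interval of 14.5 to 3265. In P the fold was 1.92 in replicate 1, where the interval of 0.583 to 8.18 includes 1, 1.29 in replicate 2 (0.9502 to 1.77), and in replicate 3, with *Cnot6* at 0, at least 76.3-fold higher if *Cnot6* is set at 3 reads, where the exact interval began at 61.7.

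**Figure D2:**
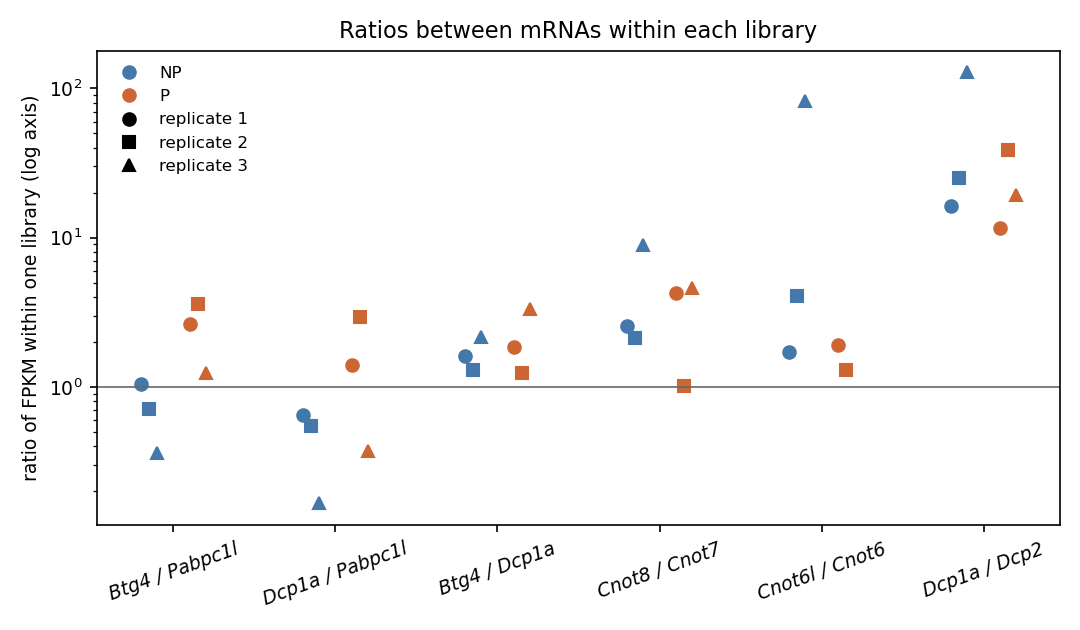
Ratio of FPKM between mRNAs within each library (log axis), NP in blue and P in orange, with symbols for the replicate number and a line at equal levels. *Cnot8* over *Cnot7*, *Cnot6l* over *Cnot6*, *Btg4* over *Dcp1a* and *Dcp1a* over *Dcp2* lie above the line in every library shown. The read intervals of *Cnot8* over *Cnot7* in P replicate 2 and of *Cnot6l* over *Cnot6* in P replicates 1 and 2 include 1. *Btg4* and *Dcp1a* over *Pabpc1l*, described below, lie on both sides of the line. P replicate 3 is not drawn for *Cnot6l* over *Cnot6*, because *Cnot6* is listed at 0 there.

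Set together, the DEDD-type mRNAs (*Cnot7* plus *Cnot8*) stood above the EEP-type mRNAs (*Cnot6* plus *Cnot6l*) in every library. The sums were 164, 114 and 237 FPKM against 9.93, 23.4 and 1.04 FPKM in NP, which is 16.5-fold, 4.88-fold and 229-fold. In P they were 237, 58.3 and 62.0 FPKM against 10.8, 19.4 and 22.3 FPKM, or 21.98-fold, 3.00-fold and 2.78-fold. The NP and P folds overlapped, and their difference had an exact permutation p of 0.3 (two-sided, n = 3 each), where 3 libraries against 3 cannot give less than 0.1. The test took the libraries as independent, although NP and P fractions of one sample are not, so it does not decide whether the folds differ. It was the smallest p among the sums, shares and folds tested in this way. *Cnot7* plus *Cnot8* exceeded the scaffold *Cnot1* 3.43-fold to 5.21-fold in NP, and by 11.6-fold, 0.912-fold and 10.7-fold in P replicates 1, 2 and 3. In P replicate 2 the scaffold mRNA was thus the higher one.

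Of the decapping mRNAs, *Dcp1a* was far above *Dcp2* in every library. *Dcp1a* (chromosome 14, 30479565 to 30527056, plus strand) encodes the activating subunit of the decapping complex and carried the 3 CPE windows above. It was at 541, 485 and 154 FPKM in NP (393 ± 209) and at 310, 639 and 80.8 FPKM in P (343 ± 281; SD, n = 3 each). Replicate 3 was again the lowest in each fraction, and the fractions overlapped. The log2 ratio was -0.44 with an SE of 0.77 (95% interval -2.04 to 1.16; limma adjusted p = 0.7751), and it was 0.55 after median-of-ratios rescaling.

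*Dcp2* (chromosome 18, 44380500 to 44424969, plus strand) encodes the catalytic decapping enzyme. It was at 33.4, 19.2 and 1.202 FPKM in NP and at 26.8, 16.4 and 4.18 FPKM in P, with a log2 ratio of 0.24 and an SE of 1.25 (limma adjusted p = 0.9338). Without NP replicate 3 the log2 ratio was -0.95. *Dcp1a* exceeded *Dcp2* by 16.2-fold, 25.3-fold and 128-fold in NP and by 11.5-fold, 38.9-fold and 19.3-fold in P. *Btg4* was above *Dcp1a* in all 6 libraries, by 1.602-fold, 1.30-fold and 2.17-fold in NP and by 1.86-fold, 1.23-fold and 3.32-fold in P, so these abundant mRNAs kept the same order in both fractions although each varied over 2-fold among replicates. At the exon lengths used, the values of *Btg4*, *Cnot1*, *Dcp1a* and *Dcp2* did not come out as whole reads, so their read numbers are not given. The exon lengths behind their FPKM, and so the size of their folds over other mRNAs, are uncertain.

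*Ythdf2* (chromosome 4, 132184912 to 132212303, minus strand), which encodes the reader of m6A-marked mRNAs, had the lowest ratio of the 10 mRNAs with all 6 libraries, although *Zfp36l2* was lower with a pseudocount of 0.1 and without NP replicate 1 or P replicate 2, and *Cnot8* without NP replicate 2 or P replicate 3. It was at 19.6, 33.6 and 25.8 FPKM in NP (26.3 ± 7.03) and at 17.4, 15.7 and 2.82 FPKM in P (11.96 ± 7.96; SD, n = 3 each). All 3 P values lay below all 3 NP values as deposited, but not after median-of-ratios rescaling, when NP was at 10.6, 18.1 and 27.2 and P at 18.5, 21.3 and 4.82 and the log2 ratio was -0.44. *Ythdf2* alone (1 of the 10 mRNAs) was so ordered, as were 23.2% of all genes tested, and the nearest values of the 2 fractions, those of replicate 1, rested on 111 reads in NP and 13 reads in P. None of the 10 had all 3 P values above all 3 NP values, which 0.633% of genes had. The log2 ratio was -1.34 with an SE of 1.10 (95% interval -3.62 to 0.94; limma adjusted p = 0.5164). The difference therefore did not pass the test, and without P replicate 3 the log2 ratio was -0.61. Of the 50-base stretches of *Ythdf2*, 7.49% also occur in *Gm6823* or *Gm8401*, which are not among the gene symbols listed, so their levels could not be read.

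*Zfp36l2* (chromosome 17, 84183931 to 84187947, minus strand) encodes a zinc-finger protein that binds AU-rich elements and recruits CCR4-NOT. It was detected in 3 of the 6 libraries, at 14.9 and 1.98 FPKM in NP replicates 2 and 3 and at 10.7 FPKM in P replicate 2, from 954, 85 and 43 reads. It was listed at 0 in NP replicate 1 and in P replicates 1 and 3, where 3 reads would be worth 0.687, 5.19 and 0.549 FPKM. The level of NP replicate 3 lies below that limit in P replicate 1, so the 0 there does not separate these libraries. The log2 ratio was -0.68 with an SE of 1.27 (limma adjusted p = 0.7939), and without NP replicate 2 it was 0.39.

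Across the whole table, P and NP were compared by limma on log2(FPKM + 1), with Benjamini-Hochberg adjustment over the 10578 genes whose mean passed 1 FPKM in NP or in P. All 10 mRNAs met that filter, and 0 of 10 passed an adjusted p of 0.1, against 1.82% of all genes tested (1.80% lower in P and 0.0189% higher). None of the 10 had an unadjusted p below 0.05, against 15.8% of all genes, and their adjusted p-values ran from 0.5164 to 0.9338. The log2 ratio was below 0 for 7 of the 10 and for 80.1% of all genes. The median was -0.46 for the 10 mRNAs and -1.03 for all genes tested, and 9 of the 10 lay above the latter, which 50.0% of genes do by definition, *Ythdf2* being the exception. That count was 6 of 10 without the filter on low values, 7 of 10 with a pseudocount of 5, and from 7 to 10 with a library left out. Median-of-ratios rescaling moved the median of all genes to -0.37 and left 1 gene past the threshold lower in P and 2 higher, against 190 lower and 2 higher without it. Relative to the moved median, each of *Btg4*, *Cnot1*, *Cnot7*, *Cnot8* and *Dcp1a* stayed above it, while the signs of their own ratios turned.

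**Figure D3:**
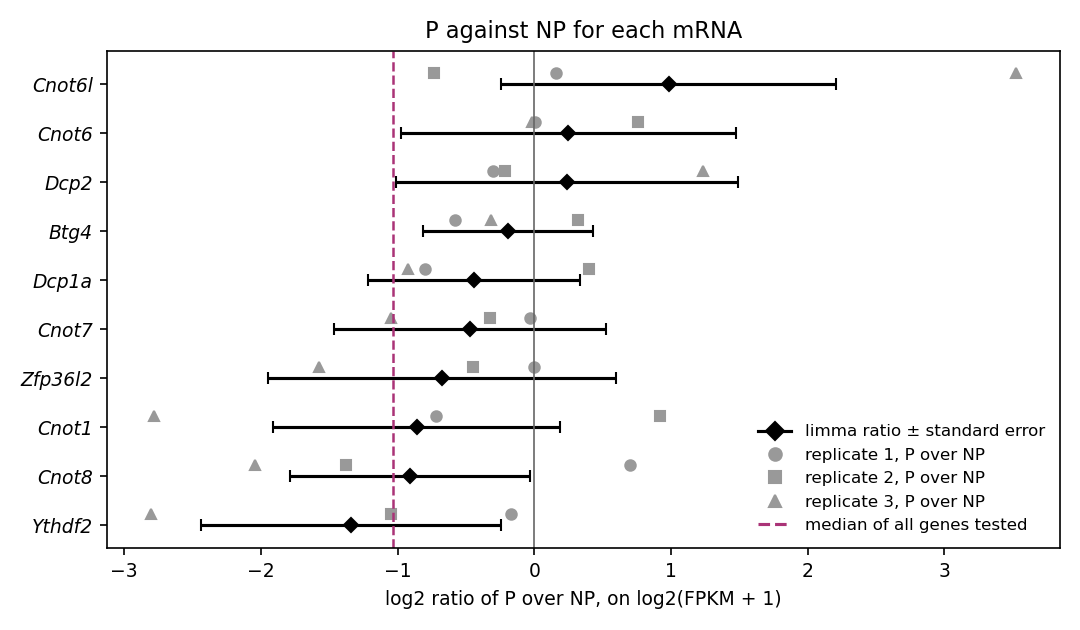
Log2 ratio of P over NP for each mRNA on the log2(FPKM + 1) scale, with black diamonds for the limma estimate and bars for its standard error (n = 3 libraries per fraction), grey symbols for the ratio of same-numbered libraries, and a dashed line at the median of all genes tested, -1.03. The estimates run from -1.34 for *Ythdf2* to 0.98 for *Cnot6l*, and 9 of 10 lie to the right of the dashed line.

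Standard errors of the 10 ratios ran from 0.62 for *Btg4* to 1.27 for *Zfp36l2*. Some libraries often held the lowest value. P replicate 3 held the lowest P value for 7 of the 10 mRNAs and for 30.8% of genes tested, and NP replicate 3 the lowest NP value for 6 of the 10 and for 60.8% of genes. *Cnot6l* went against this in P, where replicate 3 held its highest value, and *Cnot1* and *Cnot8* in NP. Without P replicate 3, the log2 ratios were 0.25 for *Btg4*, 0.37 for *Dcp1a* and 0.07 for *Cnot7*, each turned in sign and none past the threshold.

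The other genes of the decay pathway were read from 9 lists with 88 genes, of which 87 were in the table and 73 were tested. Only *Exosc5* passed the threshold, lower in P, which is 1.37% of the 73 beside 1.82% of all genes tested. Of the 73 genes, 60 (82.2%, beside 80.1% of all genes) had a log2 ratio below 0 and 13 above, with a median of -1.24 and a range from -3.80 to 2.91. The list medians were -1.09 for the 6 other CCR4-NOT subunits, -1.65 for the 7 other deadenylases, -1.23 for the 3 tested BTG/TOB genes, -0.21 for the 5 poly(A)-binding protein genes and -1.41 for the 12 tested decapping and 5'-3' decay genes. They were -1.25 for the 16 exosome genes and cofactors, -0.70 for the 2 tested uridylation genes, -1.33 for the 13 tested RNA-binding adaptors and m6A readers, and -1.12 for the 9 tested nonsense-mediated decay genes. *Btg3*, *Nudt16*, *Zcchc11* and *Zfp36l1*, the last a paralogue of *Zfp36l2*, were at 0 in all 6 libraries.

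**Figure D4:**
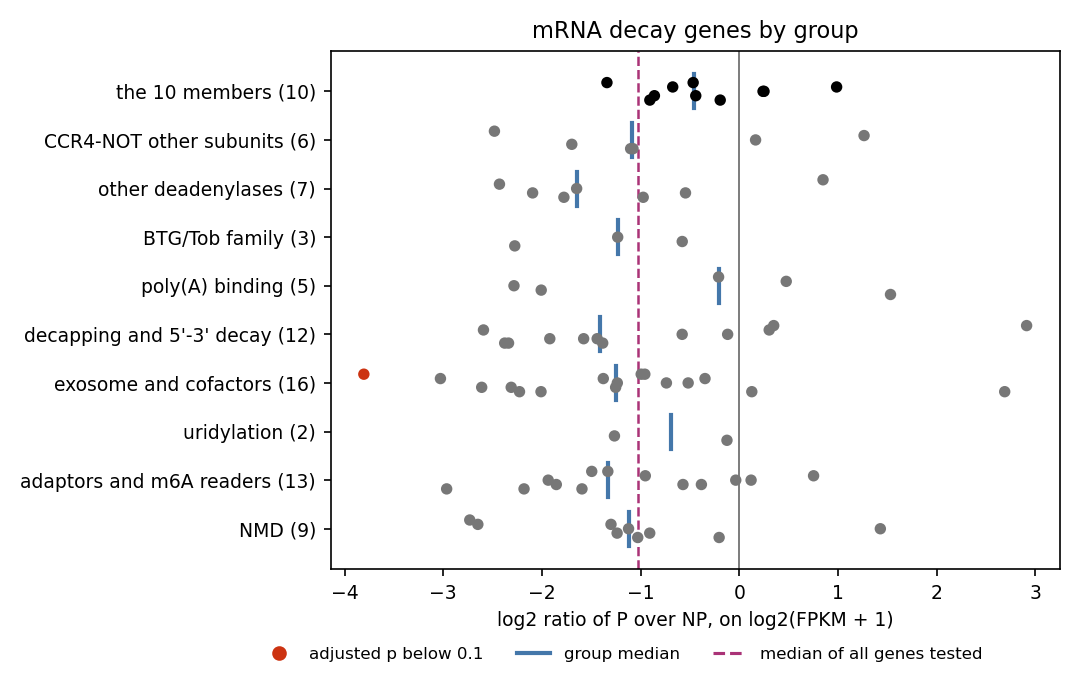
Log2 ratio of P over NP (log2(FPKM + 1) scale) for the 10 mRNAs, black, and for the tested genes of each decay list, grey, with the number of genes in brackets, a blue bar at each median and a dashed line at the median of all genes tested, -1.03. *Exosc5*, in red at -3.80, is the gene past an adjusted p of 0.1.

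*Exosc5*, which encodes a core subunit of the RNA exosome, was at 150, 174 and 72.5 FPKM in NP and at 17.8, 0.851 and 19.4 FPKM in P. All P values lay below all NP values, and the log2 ratio was -3.80 with an SE of 1.07 (limma adjusted p = 0.09725). The call was lost when any NP library or P replicate 2 was left out, while the log2 ratio was then -3.67, -3.56 and -4.19 without NP replicates 1, 2 and 3 and -2.67 without P replicate 2. It was also lost with a pseudocount of 0.1, without the filter on low values and after median-of-ratios rescaling, with log2 ratios of -4.16, -3.80 and -2.89. The adjusted p ranged from 0.03599 to 0.6144 over the alternatives. The tail-shortening mRNAs can also be set beside the mRNA of the protein that covers the tail in oocytes, *Pabpc1l*, which was named after its values were seen. *Pabpc1l* was at 830, 884 and 928 FPKM in NP and at 220, 218 and 217 FPKM in P, with a log2 ratio of -2.01 and an SE of 0.59 (limma adjusted p = 0.1134, 0.07008 to 0.7014 over the alternatives). After median-of-ratios rescaling its log2 ratio was -1.01. The other poly(A)-binding protein genes did not share 1 direction. *Pabpc4* was at -2.28, *Pabpn1l* at -0.21, *Pabpn1* at 0.47 and *Pabpc1* at 1.53 (log2), none past the threshold.

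Within a library, *Btg4* was at 1.04-fold, 0.714-fold and 0.360-fold the level of *Pabpc1l* in NP replicates 1, 2 and 3. In P it was at 2.63-fold, 3.61-fold and 1.24-fold. The fractions did not overlap, and *Btg4* was above *Pabpc1l* in 3 of 3 P libraries and in 1 of 3 NP libraries. A ratio within a library does not depend on how that library was scaled, but the lower P level of *Pabpc1l* enters each fold. The log2 ratio of *Btg4* itself was -0.19 with an SE of 0.62. The share of all genes whose folds over *Pabpc1l* separate in this way was not computed. *Dcp1a* was at 0.651-fold, 0.548-fold and 0.166-fold the level of *Pabpc1l* in NP and at 1.41-fold, 2.94-fold and 0.373-fold in P, and here the fractions overlapped. Because *Pabpc1l* was chosen for its pattern, these folds are a description and no test was made of them.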

How the data were processed

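Ribodepleted, whole-transcriptome-amplified RNA of 3 NP and 3 P pools was sequenced. Per the sources, reads were trimmed with Trim Galore 0.4.1, checked with FastQC 0.11.5 and aligned to GRCm38 with HISAT2 2.0.5. The authors deposited FPKM per gene from Seqmonk 1.40.0, not counts. The annotation release was not given in the sources used here, nor was the strand setting. The fractions were compared by limma 3.58.1 (R 4.3.3) on log2(FPKM + 1) with an intensity trend, two-sided, keeping genes whose mean passed 1 FPKM in NP or P, Benjamini-Hochberg adjusted at 0.1. The script was tested on simulated data. Depth was estimated from FPKM steps and GENCODE M21 exon lengths (55.7% to 60.7% of 3000 low values whole within 0.02 reads), and members' reads were taken where whole within 0.1. Intervals of read ratios are exact binomial. Motifs were read from 1 principal transcript per gene. Plots were made in Python 3.11.15. The 10 genes, the lists and the tests were chosen with earlier results of these data known. Named genes were the 10 and list genes past the threshold, besides *Pabpc1l*, the other poly(A)-binding protein genes and the list genes at 0 throughout. Those were added after their values were seen. *Exosc6* was not matched. The labels and the study's methods give the mice's strain and age differently, and those of the labels are used. Alternatives were other pseudocounts, no filter, rescaling, a replicate block, a threshold of 0.05 and leaving out each library.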

Additional observations from a re-analysis of the deposited data

How the results depend on the processing

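No member passed the threshold under any of 11 alternatives (limma, lowest adjusted p 0.4411). Median-of-ratios rescaling turned *Btg4* to 0.80, *Cnot1* to 0.083, *Cnot7* to 0.49, *Cnot8* to 0.077 and *Dcp1a* to 0.55 (log2). Leaving out single libraries turned 6 members, with ranges of -0.57 to 0.25 for *Btg4*, -0.53 to 1.16 for *Cnot6*, -0.89 to 0.072 for *Cnot7*, -1.11 to 0.37 for *Dcp1a*, -0.95 to 1.03 for *Dcp2* and -1.86 to 0.39 for *Zfp36l2*. The others kept their sign when a library was left out, with ranges of -1.67 to -0.04 for *Cnot1*, 0.13 to 1.78 for *Cnot6l*, -1.67 to -0.33 for *Cnot8* and -1.74 to -0.61 for *Ythdf2*. Some mean levels rested on 1 library: in P, *Zfp36l2* was at 0 FPKM without replicate 2 (3.56 with it) and 5.34 without replicate 1 or 3, *Cnot1* at 13.1 (30.01), *Cnot6* at 1.85 (4.06) and *Dcp1a* at 195 (343) without replicate 2, and *Cnot8* at 40.1 (90.8) and *Dcp2* at 10.3 (15.8) without replicate 1; in NP, *Zfp36l2* was at 0.993 (5.64), *Cnot6* at 1.84 (2.76) and *Cnot6l* at 3.65 (8.71) without replicate 2, and *Dcp2* at 10.2 (17.9) without replicate 1. Genes past the threshold numbered 192, 69 with a pseudocount of 0.1, 0 without the filter (1759 at unadjusted p below 0.05), 3 after rescaling, 65 at a threshold of 0.05, and 1 to 331 with a library left out (4, 12 and 1 without NP replicates 1, 2 and 3, and 331 without P replicate 3). Of the list genes, 1 passed, against 0 with a pseudocount of 0.1, without the filter, after rescaling or at 0.05, and 0 to 2 with a library left out. The cause of these moves was not tested. Deviations of same-numbered libraries correlated at 0.063, 0.099 and 0.116 and those of other pairs at -0.089 to 0.021, so each library correlated best with its own number, while the numbers were not taken as pairing. With the replicate number as a block, 668 genes and 2 list genes (*Exosc5* and *Pabpc1l*) passed. The 0 of *Zfp36l2* in P replicate 1 allows up to 5.19 FPKM by counting error alone.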
